A study of Mus musculus with 24 samples.

Results

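The chemokine family of C57BL/6 (B6) and MRL/MpJ (MRL) quadriceps muscle was examined after injury and biomaterial implantation. Members were chosen by gene symbol alone, as the chemokine ligands (Ccl, Cxcl and Cx3cl1 genes), their receptors (Ccr, Cxcr and Cx3cr1 genes) and the atypical chemokine receptors (Ackr genes). Of the 14159 genes with a symbol in the expression matrix, 42 were members, with 27 ligands, 12 receptors and 3 atypical receptors. The mouse annotation used here holds 61 symbols of the family, and 19 of them have no row in the matrix analysed here. Before deposition the authors kept genes above 1 CPM (reads scaled to a common library size) in at least 3 libraries. As deposited, Ccl3, Ccl4, Ccr7, Cxcl2, Cxcl3, Cxcl5, Cxcr1, Cxcr2 and Cxcr3 exceeded 1 CPM in 3 libraries only with the B6 PE group. The rows of these 9 members are therefore taken to rest on that group. The filter is recovered only approximately, because the authors applied it before normalization. Cxcl1, Cxcr6 and Ackr2, 3 of the 42 members, stayed below this level in the deposited values and yet have a row.

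Chemokines are small secreted or membrane-bound proteins that guide leukocytes along concentration gradients through G protein-coupled receptors. The family is redundant: 1 receptor usually binds several ligands, the ligand genes lie side by side in clusters, and each receptor is carried by a characteristic set of leukocytes. In injured muscle, the ligands of CXCR2 are known for drawing neutrophils, the ligands of CCR2 for drawing monocytes, and the ligands of CXCR3 for drawing T cells and natural killer cells. Atypical receptors bind chemokines without G protein signalling and remove or redistribute them.

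Young adult female mice of both strains received a volumetric muscle loss (VML) injury, a surgical defect of the quadriceps, filled with 1 of 3 treatments. The treatments were saline as the vehicle control (Saline), decellularized extracellular matrix from pig small intestine (ECM) and polyethylene powder (PE), and uninjured muscle (Uninjured) was the baseline. Whole injured muscles were collected 21 days after injury, and bulk RNA was sequenced in 24 libraries, 3 in each of the 8 combinations of strain and treatment. The MRL strain is known for closing ear punches without scarring and for an autoimmune background, and it differs from B6 at many loci, so a strain difference cannot be assigned to 1 gene. Levels below are CPM, recovered from the deposited log2 CPM values by removing their prior count, and log2 fold changes (± SE) are on the deposited scale, which understates the change of genes near 0. Calls are genes whose limma p, adjusted over all 14159 genes, was below 0.05, and the share of all genes called in the same direction is given beside each first count of members as the background.

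The mean effective library, computed from the prior, held 25149682 reads, and 3 counts, the limit that a count of 0 allows, corresponded to 0.119 CPM in such a library. This limit and the intervals of count ratios below cover counting error only. In whole muscle, fewer cells of a type and less RNA per cell cannot be told apart. The muscle identity of the libraries was clear, since 10 muscle fibre genes summed to at least 37175 CPM in every library. Leukocyte markers moved with PE. In the B6 PE libraries the 13 macrophage markers with a row summed to 3188, 5898 and 1682 CPM and the 8 neutrophil markers with a row to 135, 229 and 56.6 CPM. MRL PE replicate 2 stood apart from the other MRL PE libraries, with 4970 CPM of macrophage markers against 323 and 310 CPM in replicates 1 and 3. Its neutrophil markers summed to 107 CPM against 14.6 and 29.8 CPM, its dendritic cell markers to 1656 CPM against 20.5 and 31.3 CPM, and its muscle fibre genes to 37175 CPM against 142465 and 143826 CPM. In the 18 libraries outside the PE groups, the macrophage sum lay between 107 and 1043 CPM and the neutrophil sum between 3.90 and 41.0 CPM. The neutrophil list is weak evidence of these cells, because Ly6g, Ngp, Camp and Elane have no row and Trem1, Mmp8, Ltf, S100a8 and S100a9 were at a count of 0 in 7, 5, 2, 1 and 1 libraries. Lcn2, a neutrophil marker that gland epithelium also makes, stood at 23.8, 0.353 and 0.615 CPM in MRL Uninjured and at 1.48, 20.0 and 12 CPM in MRL PE. In the same libraries 5 milk protein genes summed to 64.8, 0.186 and 0.439 CPM and to 0.260, 49.6 and 95 CPM. The part of cell content in the chemokine results was not tested, and the counts of members called in MRL PE are given with and without replicate 2.

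**Figure D1:**
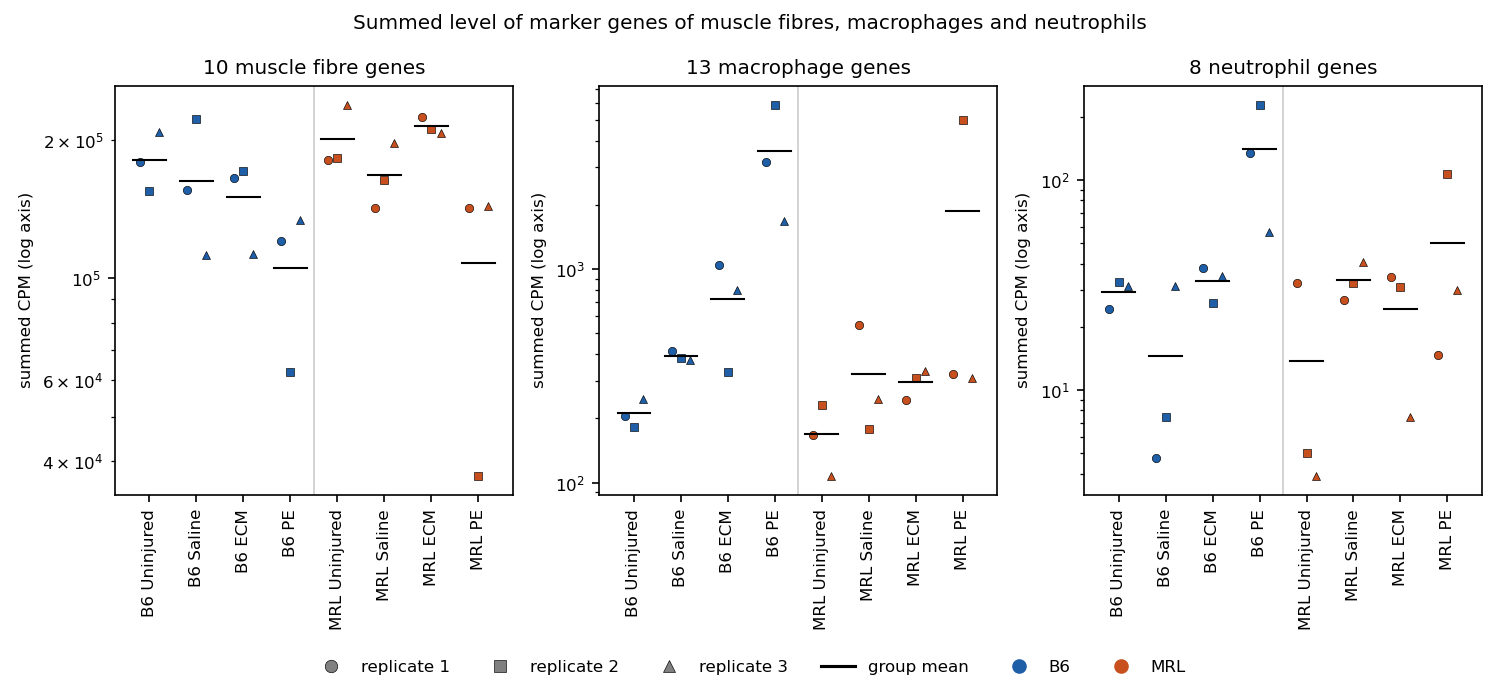
Summed CPM (log axis) of 10 muscle fibre, 13 macrophage and 8 neutrophil marker genes in each of the 24 libraries, grouped by strain and treatment. The 3 B6 PE libraries and MRL PE replicate 2 carried the highest macrophage sums, from 1682 to 5898 CPM, and the other MRL PE libraries lay at 310 and 323 CPM.

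Of the 16 comparisons of 2 groups, PE against Uninjured in B6 mice gave the most calls in the family. Against B6 Uninjured, 21 of the 42 members were higher (50%, against 14.7% of all genes called higher) and 0 were lower, and 26 members had an unadjusted p under 0.05 with limma. The median log2 fold change was 1.84 over the members and 0.02 over all genes. By role, 14 of 27 ligands and 7 of 12 receptors rose, and 0 of 3 atypical receptors were called. Of the 21, 8 belong to the 9 members whose row rests on the B6 PE libraries, and 13 do not. The count of 21 and the median of 1.84 are therefore not read against the background. The count leaned on B6 PE replicate 2, the B6 library with the highest macrophage sum, and fell to 12 members (3.09% of all genes called higher) without it. Under quantile normalization, which moved the median over all genes to -0.14, 20 members were called higher and 4 lower (Ackr3, Ccl11, Ccl25 and Ccr10). Ccl3, Ccl4, Ccl6, Ccl8, Ccl9, Ccl22, Ccr7, Cxcl2, Cxcl3, Cxcl5, Cxcl16 and Cxcr2 were called again whichever 1 of the 6 compared libraries was left out. With libraries scaled to equal totals the median over all genes moved to 0.43, and 24 members were called, each higher. Comparisons within a strain share libraries, so their values are given side by side and are not independent.

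**Figure D2:**
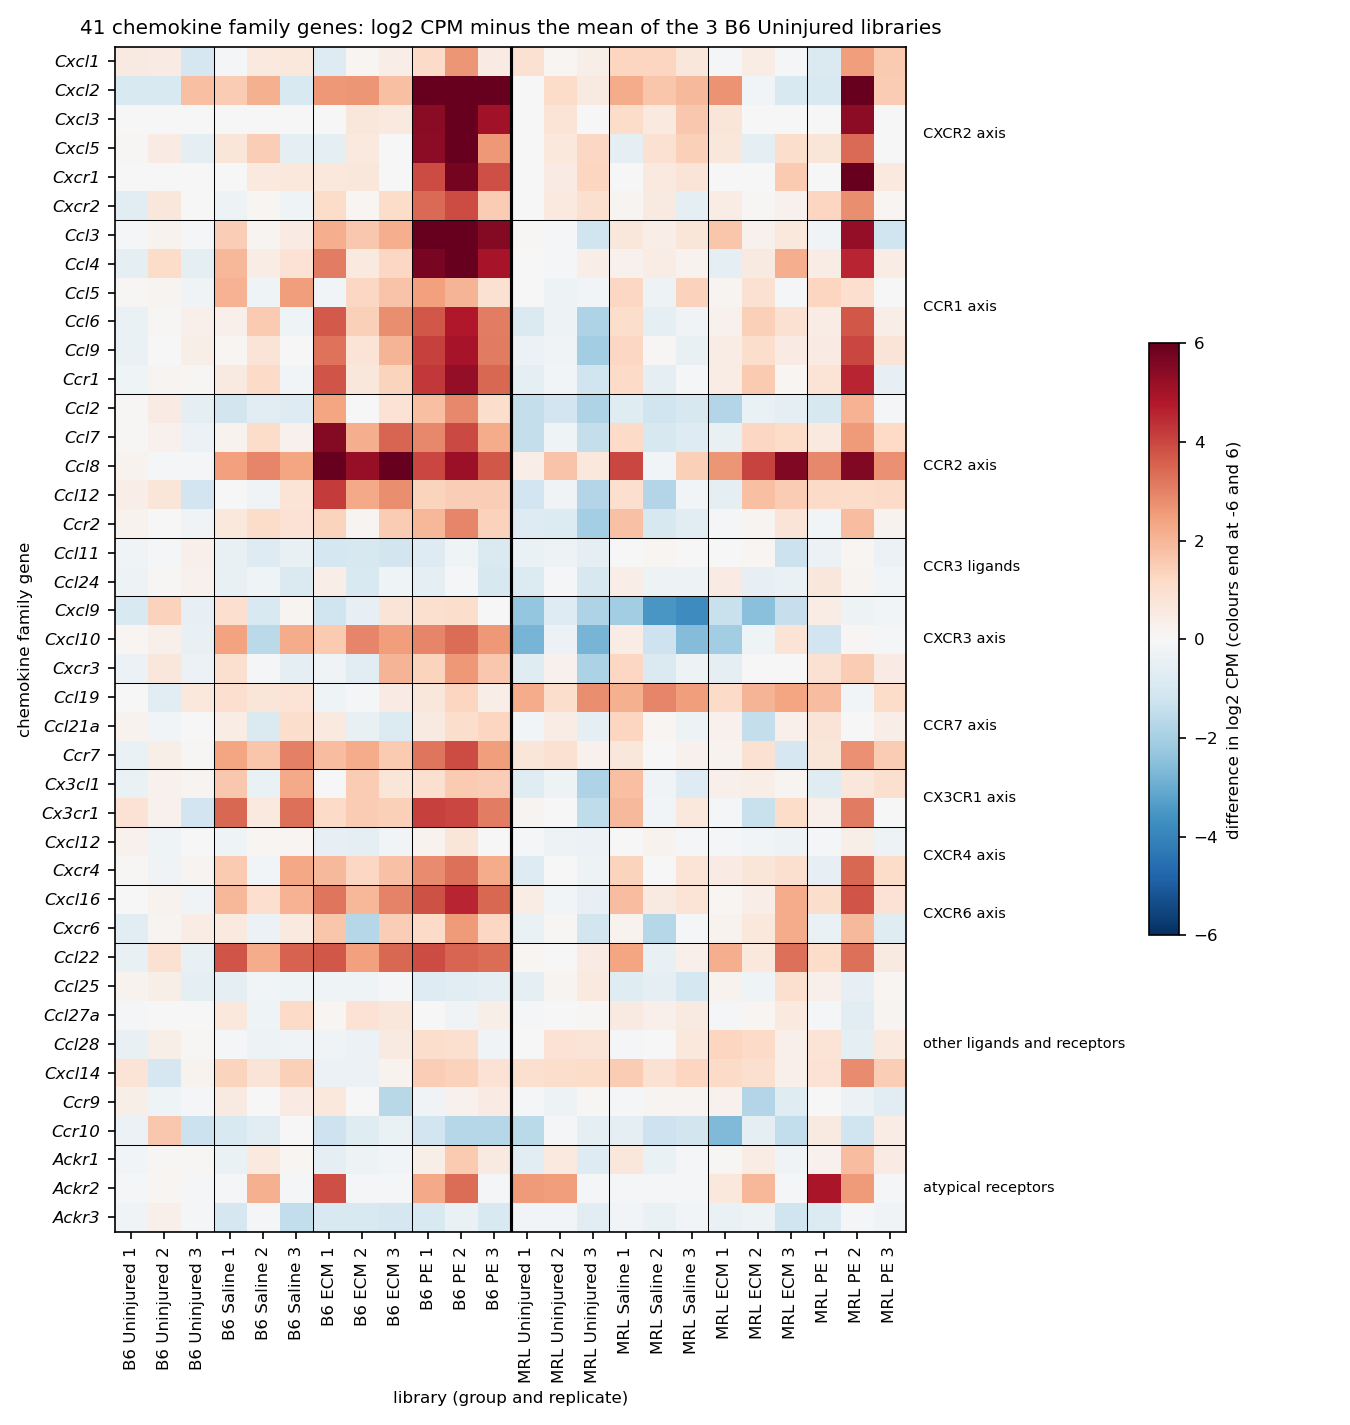
Heat map of 41 members (rows, ordered by receptor axis) in the 24 libraries (columns), as log2 CPM minus the mean of the 3 B6 Uninjured libraries, with the colours ending at 6 in either direction. Most of the highest values sit in the 3 B6 PE libraries and MRL PE replicate 2, those of Ccl7 and Ccl8 in B6 ECM, and MRL PE replicates 1 and 3 lie near the uninjured libraries for most members.

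In the CXCR2 axis, the ligands and receptors that recruit neutrophils, 5 of 6 members rose in B6 PE. All 5 are among the 9 members whose row rests on the B6 PE libraries. Cxcl1 was above 1 CPM in 2 libraries of the deposited values, short of the filter with or without B6 PE, and was not called. Cxcl2, also known as MIP-2, stood at 38.8, 129 and 22.4 CPM in the B6 PE libraries and at 0, 0 and 0.45 CPM in the B6 Uninjured libraries. It stood at 0.355, 0.569 and 0 CPM after saline and at 0.827, 0.861 and 0.448 CPM after ECM, so the PE libraries lay far above all other B6 libraries with no overlap. The log2 fold change against Uninjured was 8.33 ± 1.36 (adjusted p = 0.0018). Cxcl3, a close relative of Cxcl2, stood at 3.30, 10.8 and 2.56 CPM in B6 PE and was at a count of 0 in each B6 Uninjured and each B6 Saline library. In B6 ECM it stood at 0, 0.0478 and 0.0395 CPM, under the level of 3 counts. Cxcl3 in B6 PE was therefore at least 46.6-fold higher than in Uninjured muscle, taking the floor of 3 counts per library (log2 fold change 5.85 ± 0.99, adjusted p = 0.00191). Cxcl2 and Cxcl3 are not fully separable, since the Cxcl2 transcript is 94.6% identical to Cxcl3 over 60.2% of its length and reads from that stretch can be split between them.

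Cxcl5, an epithelial and stromal ligand of CXCR2, stood at 4.78, 7.58 and 0.639 CPM in B6 PE and at 0.0454, 0.0882 and 0 CPM in B6 Uninjured. The counts implied by the mean library were 327 against 3 over the groups, a ratio of 97.2 with a 95% counting interval of 37.0 to 531.0 (log2 fold change 4.66 ± 0.93, adjusted p = 0.00361). All 3 PE libraries lay above the Uninjured libraries, but replicate 3 was much lower than the other PE libraries. The fourth ligand, Cxcl1 (KC), behaved differently. It stood at 0.714, 2.12 and 0.424 CPM in B6 PE and at 0.441, 0.415 and 0.0972 CPM in B6 Uninjured, so the groups overlapped and the log2 difference of 1.42 ± 0.70 was not called (adjusted p = 0.133). Cxcr2, the receptor for these ligands on neutrophils, reached 1.27 to 6.96 CPM in B6 PE against 0.220 to 0.677 CPM in B6 Uninjured (log2 fold change 2.93 ± 0.62, adjusted p = 0.00518). Cxcr1, its neighbour and relative, reached 1.08 to 4.20 CPM in B6 PE and was at a count of 0 in all 3 B6 Uninjured libraries, which makes it at least 17.9-fold higher (log2 fold change 4.51 ± 1.14, adjusted p = 0.0115). The Cxcr1 call was lost without B6 PE replicate 2 (log2 fold change 3.89, adjusted p = 0.0815), and the neutrophil markers rose in the same libraries, 6 of 8 called higher.

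The upstream sequences of Cxcl1, Cxcl2 and Cxcl3 share a run of bases, and they are shown because these genes are neighbours and relatives of which Cxcl2 and Cxcl3 were called and Cxcl1 was not. Each sequence is the 250 bases before the transcription start in the RefSeq annotation of GRCm38.p6, on the plus strand of chromosome 5, and capitals mark the longest run common to the 3 windows. It is the 11-base run GGGAATTTCCC, whose letters match the known type of NF-kappaB site. Cxcl5 has no window in the table used.
Cxcl1, chr5:90890995-90891244: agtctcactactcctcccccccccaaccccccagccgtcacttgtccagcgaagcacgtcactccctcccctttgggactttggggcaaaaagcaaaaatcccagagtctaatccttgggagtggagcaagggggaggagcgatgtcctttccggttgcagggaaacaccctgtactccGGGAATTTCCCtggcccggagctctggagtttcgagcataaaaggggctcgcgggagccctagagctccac
Cxcl2, chr5:90903649-90903898: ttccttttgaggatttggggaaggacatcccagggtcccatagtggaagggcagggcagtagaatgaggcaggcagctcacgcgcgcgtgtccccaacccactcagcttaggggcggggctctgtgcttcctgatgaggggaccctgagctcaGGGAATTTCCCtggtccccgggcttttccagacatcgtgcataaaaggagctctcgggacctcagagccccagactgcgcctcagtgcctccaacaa
Cxcl3, chr5:90785851-90786100: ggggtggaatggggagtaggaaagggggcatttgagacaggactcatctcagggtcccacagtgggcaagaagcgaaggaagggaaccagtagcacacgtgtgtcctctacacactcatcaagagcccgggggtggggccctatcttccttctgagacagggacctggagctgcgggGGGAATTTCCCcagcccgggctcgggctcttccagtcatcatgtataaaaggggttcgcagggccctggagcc
The run begins 71 bases before the start of Cxcl1, 97 before that of Cxcl2 and 73 before that of Cxcl3. Searched on both strands, as GGGAATTTCCC and GGGAAATTCCC, it was in 14 of 32851 promoter windows of all genes (0.0426%) and in 3 of the 31 member genes with a window. The 3 genes thus share these letters whether or not they were called. The match describes the letters only, and no binding was measured.

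Among the receptor CCR1 and its ligands, which attract monocytes, macrophages and T cells, Ccl3, Ccl4, Ccl6, Ccl9 and Ccr1 rose in B6 PE. Ccl3, or MIP-1 alpha, stood at 13.1, 32.4 and 8.25 CPM in B6 PE against 0.0884, 0.127 and 0.0904 CPM in B6 Uninjured (log2 fold change 6.40 ± 1.05, adjusted p = 0.0018). Its levels after saline were 0.415, 0.120 and 0.178 CPM and after ECM 0.733, 0.476 and 0.746 CPM. Every PE library thus lay over 10 times above the highest library of the other B6 groups. Ccl4, or MIP-1 beta, followed the same order, with 5.92, 12.2 and 3.53 CPM in B6 PE and 0, 0.169 and 0 CPM in B6 Uninjured (log2 fold change 5.79 ± 0.96, adjusted p = 0.0018). In the other B6 groups Ccl4 did not exceed 0.913 CPM. An annotated RNA on the opposite strand overlaps 21.1% of the Ccl3 exon bases, and the strand of the libraries is not given in the sources used here.

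Ccl6 and Ccl9, rodent ligands of CCR1 made by macrophages and other myeloid cells, were already well expressed in uninjured muscle. Ccl6 stood at 150, 316 and 97.4 CPM in B6 PE and at 8.71, 12 and 14.1 CPM in B6 Uninjured (log2 fold change 3.86 ± 0.77, adjusted p = 0.00364). Ccl9 stood at 147, 261 and 72.0 CPM in B6 PE and at 6.28, 8.58 and 10.8 CPM in B6 Uninjured (log2 fold change 4.06 ± 0.77, adjusted p = 0.00313). For both genes all PE libraries lay above all Uninjured libraries, but B6 ECM replicate 1 lay within the PE range, with 146 CPM of Ccl6 and 79.3 CPM of Ccl9, while ECM replicates 2 and 3 stood at 30.7 and 79.1 CPM of Ccl6 and at 14.7 and 34.7 CPM of Ccl9. Ccr1, the receptor of these ligands, reached 9.63 to 33.6 CPM in B6 PE against 0.657 to 0.923 CPM in B6 Uninjured (log2 fold change 4.31 ± 0.95, adjusted p = 0.00634), and without B6 PE replicate 2 it narrowly missed the threshold (3.84, adjusted p = 0.0515). Ccl5 (RANTES) lay at 0.606 to 1.95 CPM in B6 PE, above the Uninjured range of 0.234 to 0.330 CPM, and missed the threshold (log2 difference 1.81 ± 0.67, adjusted p = 0.0541). Part of the Ccr2 transcript closely resembles another gene, so the Ccr2 level is uncertain.

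**Figure D3:**
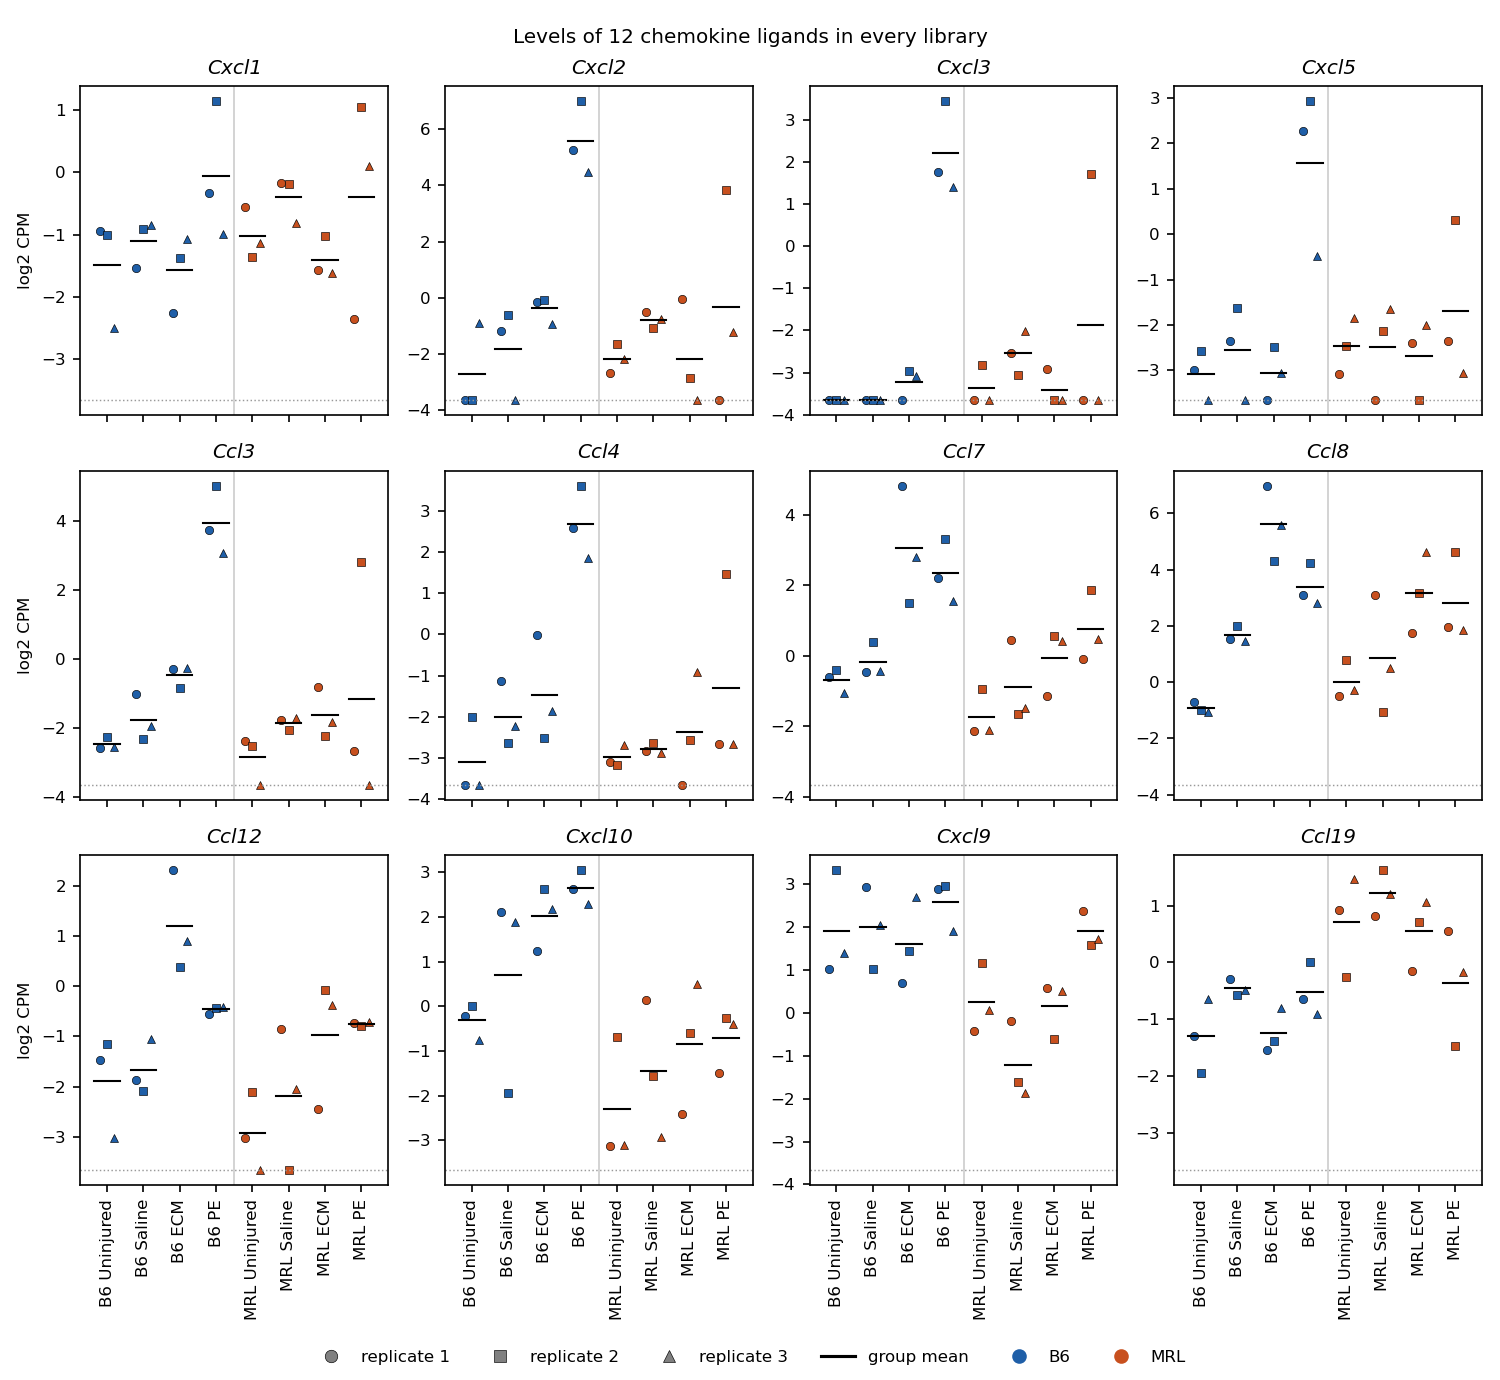
Level of 12 chemokine ligands in each library (log2 CPM, vertical axis) by strain and treatment (horizontal axis), with bars at group means and a dotted line at the value of a count of 0. Cxcl2, Cxcl3, Ccl3 and Ccl4 have their highest levels in the 3 B6 PE libraries and MRL PE replicate 2, whereas Ccl8 and Ccl7 reach their highest level in B6 ECM replicate 1.

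The CCR2 axis, the main route of inflammatory monocytes, held the only members called in B6 ECM against B6 Uninjured. Members outside it, such as Ccl3 and Ccl6, also had all ECM libraries above all Uninjured libraries, without a call. Ccl8, or MCP-2, stood at 127, 19.5 and 47.4 CPM in B6 ECM against 0.536, 0.420 and 0.404 CPM in B6 Uninjured (log2 fold change 6.53 ± 0.92, adjusted p = 0.00227). In B6 PE it stood at 8.55, 18.6 and 7.02 CPM (4.30 ± 0.92 against Uninjured, adjusted p = 0.00557), and after saline at 2.80, 3.90 and 2.67 CPM. The 4 B6 groups did not overlap, in the order ECM, PE, Saline, Uninjured, but the difference between PE and ECM was not called (-2.23 ± 0.92, adjusted p = 0.188), nor was that between ECM and Saline (3.96 ± 0.92, adjusted p = 0.433). Ccl7, or MCP-3, had the same order of ECM over Uninjured, at 28.1, 2.76 and 6.93 CPM against 0.575, 0.675 and 0.407 CPM (log2 fold change 3.73 ± 0.76, adjusted p = 0.0385). In B6 PE Ccl7 stood at 4.55, 9.75 and 2.87 CPM (3.04 ± 0.76, adjusted p = 0.0108), within the wide range of the ECM libraries, and after saline at 0.643, 1.24 and 0.665 CPM. Without B6 PE replicate 2 the PE call of Ccl7 was lost (2.57, adjusted p = 0.0796).

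Ccl7 and Ccl8 were the only members called in B6 ECM against B6 Uninjured with limma (2 of 42, 4.76%, against 0.198% of all genes called higher), and 13 members had an unadjusted p under 0.05. The median log2 fold change there was 0.76 over the members and -0.01 over all genes. The count fell to 1 without B6 ECM replicate 1, B6 ECM replicate 3 or any 1 B6 Uninjured library. It rose to 7 higher and 1 lower without MRL PE replicate 2 (2.58% and 1.16% of all genes). That library is outside this comparison and enters the shared estimate of the spread. Ccl12, or MCP-5, a mouse ligand of CCR2, stood at 4.85, 1.23 and 1.77 CPM in B6 ECM and at 0.280, 0.368 and 0.0436 CPM in B6 Uninjured. The groups were separate, but the log2 difference of 3.08 ± 0.74 was not called (adjusted p = 0.0661). In B6 PE Ccl12 stood at 0.6, 0.663 and 0.671 CPM, below all 3 ECM libraries and above all 3 Uninjured libraries, without a call against either (adjusted p = 0.212 and 0.151), and after saline it stood at 0.194, 0.154 and 0.400 CPM.

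Ccl2, or MCP-1, the classical monocyte attractant, stood at 4.74, 9.88 and 2.75 CPM in B6 PE and at 1.38, 1.84 and 0.838 CPM in B6 Uninjured (log2 fold change 1.91 ± 0.67, adjusted p = 0.0445). After saline Ccl2 stood at 0.563, 0.788 and 0.715 CPM, below all Uninjured libraries, and after ECM at 6.93, 1.25 and 2.42 CPM. The Ccl2 call in PE against Uninjured was lost without any 1 B6 Uninjured library and without B6 PE replicate 1 or 2 (1.43 without replicate 2, adjusted p = 0.217). Ccr2, the receptor that marks inflammatory monocytes, stood at 24.9, 48.1 and 16.3 CPM in B6 PE and at 7.14, 6.18 and 5.33 CPM in B6 Uninjured (2.11 ± 0.62, adjusted p = 0.0217). Saline libraries lay between, at 9.71, 13.3 and 11.2 CPM, and ECM libraries stood at 15.7, 6.99 and 17.6 CPM, the last above the lowest PE library. The call was lost without B6 Uninjured replicate 3 and without B6 PE replicate 2 (1.70, adjusted p = 0.129). The eosinophil-attracting ligands of CCR3 did not share the pattern. Ccl11 (eotaxin-1) lay at 7.11 to 10.9 CPM in B6 PE, below the 11.2 to 15.9 CPM of B6 Uninjured without a call (-0.62 ± 0.28, adjusted p = 0.0986), and Ccl24 (eotaxin-2) overlapped between them.

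Members that attract T cells, natural killer cells and dendritic cells had fewer calls, 1 of 3 in the CXCR3 axis and 1 of 3 in the CCR7 axis. Of the ligands of CXCR3, which are known as interferon-induced genes, Cxcl10 stood at 6.12, 8.13 and 4.81 CPM in B6 PE and at 0.784, 0.925 and 0.516 CPM in B6 Uninjured (2.97 ± 0.97, adjusted p = 0.0348). Saline gave 4.22, 0.183 and 3.64 CPM of Cxcl10 and ECM 2.28, 6.10 and 4.44 CPM, so the saline group was split, with replicate 2 apart. The Cxcl10 call in PE was lost without any 1 B6 Uninjured library and without B6 PE replicate 1 or 2 (2.78 without replicate 2, adjusted p = 0.132). Cxcl9 overlapped in all B6 groups, at 7.30, 7.64 and 3.65 CPM in PE, 1.94, 9.87 and 2.55 CPM in Uninjured, 7.49, 1.93 and 4.07 CPM after saline and 1.53, 2.63 and 6.36 CPM after ECM. Cxcr3, the receptor on activated T cells, lay at 1.02 to 2.56 CPM in B6 PE and at 0.263 to 0.630 CPM in B6 Uninjured, not called (1.84 ± 0.72, adjusted p = 0.065). The T cell markers of the same libraries summed to 69.3 to 174 CPM in B6 PE and 3.51 to 7.11 CPM in B6 Uninjured.

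Ccr7, the receptor that takes dendritic cells and naive T cells towards lymph vessels and lymph nodes, reached 0.836 to 2.39 CPM in B6 PE against 0.0439 to 0.126 CPM in B6 Uninjured (3.21 ± 0.58, adjusted p = 0.00259). Its ligands were not called in that comparison. Ccl19 stood at 0.563, 0.926 and 0.45 CPM in B6 PE and at 0.326, 0.180 and 0.558 CPM in B6 Uninjured, with overlap, and Ccl21a lay at 11.8 to 19.6 CPM against 7.14 to 9.44 CPM (0.96 ± 0.52, adjusted p = 0.168). Ccl19 and Ccl21a have near-identical copies in the mouse genome (at least 97.9% identical over the whole transcript for Ccl19, 99.3% for Ccl21a), and their levels are uncertain for that reason. Ccl22, a ligand of CCR4 made by dendritic cells and alternatively activated macrophages, reached 1.03 to 1.57 CPM in B6 PE and stood at 0, 0.124 and 0 CPM in B6 Uninjured (3.58 ± 0.81, adjusted p = 0.00707). The counts implied were 94 against 3, a ratio of 30.1 with a 95% counting interval of 10.4 to 155.0. Ccl22 was also higher in every B6 Saline library (0.436 to 1.42 CPM) and every B6 ECM library (0.518 to 1.34 CPM) than in any B6 Uninjured library, without a call.

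The remaining axes here pair 1 receptor with 1 ligand, and in B6 PE 1 side of each pair was called. For fractalkine, the receptor rose: Cx3cr1, carried by patrolling monocytes and tissue macrophages, stood at 13.9, 13.3 and 6.81 CPM in B6 PE and at 1.41, 0.917 and 0.297 CPM in B6 Uninjured (3.72 ± 0.87, adjusted p = 0.00853). After saline it stood at 8.80, 1.15 and 8.04 CPM and after ECM at 1.76, 2.32 and 2.14 CPM. The ligand Cx3cl1 stood at 5.70, 8.70 and 8.34 CPM in PE, above the 2.18, 3.45 and 3.30 CPM of Uninjured but not called (1.33 ± 0.66, adjusted p = 0.137). Its saline libraries, at 9.2, 2.23 and 14.2 CPM, were split like those of Cx3cr1 and Cxcl10, with replicate 2 apart, and its ECM libraries stood at 2.91, 8.50 and 4.89 CPM. Without B6 PE replicate 2, Cx3cr1 missed the threshold (3.57, adjusted p = 0.0525).

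For Cxcl12, the constitutive stromal ligand that retains progenitor cells, the receptor rose and the ligand was not called. Cxcl12 stood at 95.8, 139 and 85.4 CPM in B6 PE and at 99.5, 70.3 and 81.6 CPM in B6 Uninjured (0.33 ± 0.19, adjusted p = 0.204), with 69.4, 88.8 and 90.3 CPM after saline and 59.3, 55.4 and 73.8 CPM after ECM. Cxcr4 reached 12.9 to 27.9 CPM in B6 PE against 2.34 to 3.04 CPM in B6 Uninjured (2.79 ± 0.69, adjusted p = 0.0105, and 2.53 with adjusted p = 0.0689 without B6 PE replicate 2). For the CXCR6 pair it was the ligand: Cxcl16, a membrane-bound chemokine and scavenger receptor of macrophages and dendritic cells, reached 23.9 to 52.3 CPM against 1.86 to 2.47 CPM (3.93 ± 0.65, adjusted p = 0.0018), whereas Cxcr6, at 0.488 to 1.41 CPM in PE and 0.0878 to 0.269 CPM in Uninjured, was not called (adjusted p = 0.161). Med11 on the opposite strand overlaps 43.2% of the Cxcl16 exon bases, so part of its reads may be assigned to either gene.

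Among the other members, Cxcl14, a ligand without an agreed receptor that skin, fat and muscle express at rest, lay between 14.0 and 50.2 CPM in B6 Uninjured and between 52.7 and 79.8 CPM in B6 PE (1.25 ± 0.43, adjusted p = 0.0398). Its call was lost without B6 Uninjured replicate 2 or 3 and without B6 PE replicate 1 or 2 (1.19 without PE replicate 2, adjusted p = 0.137). Ccl25 and Ccr9, the pair that homes T cells to gut and thymus, were not called. Ccl25 stood at 1.62, 1.83 and 1.91 CPM in B6 PE and at 3.31, 3.61 and 1.90 CPM in B6 Uninjured (-0.65 ± 0.34, adjusted p = 0.156), with saline at 1.88, 2.53 and 2.34 CPM and ECM at 2.34, 2.39 and 2.62 CPM. Ccr9 stood at 0.6, 0.857 and 1.01 CPM in PE and 0.914, 0.559 and 0.654 CPM in Uninjured (0.19 ± 0.51, adjusted p = 0.799), with saline at 1.03, 0.706 and 1.02 CPM and ECM at 1.13, 0.695 and 0.166 CPM, so its groups overlapped throughout. The epithelial ligands Ccl27a and Ccl28 overlapped between B6 PE and Uninjured, as did their receptor Ccr10. Of the atypical receptors, Ackr3, which scavenges Cxcl12, lay at 18.8 to 27.0 CPM in B6 PE, below the 31.2 to 44.7 CPM of Uninjured (-0.74 ± 0.30, adjusted p = 0.0745). Ackr1, the chemokine-binding receptor of venules, lay at 2.57 to 6.09 CPM against 1.81 to 2.15 CPM (adjusted p = 0.178), but 62.3% of its transcript is 99.0% identical to an annotated form of Cadm3. Ackr2 was at a count of 0 in 13 of 24 libraries.

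Against the saline-treated injury, which asks what PE adds to the wound itself, fewer members were called, 9 ligands and 3 receptors. In B6 PE against B6 Saline, 12 of 42 members were higher (5.37% of all genes) and 0 lower, with medians of 1.23 over the members and 0.02 over all genes. They were Cxcl2 (7.42 ± 1.36, adjusted p = 0.0146), Cxcl3, Cxcl5, Cxcr1, Cxcr2, Ccl3, Ccl4, Ccl6, Ccl9, Ccr1, Ccl2 and Cxcl16. The rows of Cxcl2, Cxcl3, Cxcl5, Cxcr1, Cxcr2, Ccl3 and Ccl4 rest on the B6 PE libraries, and those of the others do not. The count of 12 and the median of 1.23 are therefore not read against the background. Cxcl3 was again at least 46.6-fold higher (adjusted p = 0.00999), and Cxcr1 had a ratio of implied counts of 75.9 (95% counting interval 21.9 to 670.0, adjusted p = 0.041). Ccl2 differed more from Saline (2.75, adjusted p = 0.0272) than from Uninjured muscle, and its saline libraries were the lowest of the 4 B6 groups. Among the 9 members that were called against Uninjured but not against Saline were Ccr7, Cx3cr1, Cxcr4, Ccl22 and Cxcl10, whose levels in saline libraries 1 and 3 were above the Uninjured libraries. This count was unstable, with 0 members called without B6 PE replicate 1 or replicate 2, and 4, 2 and 1 called without B6 Saline replicates 1, 2 and 3.

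Between the implants in B6 mice, PE against ECM, 2 members were higher in PE (0.198% of all genes) and 0 lower, with medians of 1.04 over the members and 0.01 over all genes, and 18 members had an unadjusted p under 0.05. The 2 called were Cxcl3 (5.43 ± 0.99, adjusted p = 0.0395, ratio of implied counts 191.0, 95% counting interval 57.6 to 1740.0) and Cxcl5 (4.64 ± 0.93, adjusted p = 0.0481). Both belong to the 9 members whose row rests on the B6 PE libraries. Neither their count nor the median of 1.04 is therefore read against the background. Cxcl2 and Ccl3 were separate between these groups and just missed the threshold (5.98 ± 1.36, adjusted p = 0.0707, and 4.41 ± 1.05, adjusted p = 0.0755). The count was 0 without B6 PE replicate 1 or 2 or any 1 B6 ECM library. It was 11 without MRL PE replicate 2, where 8.91% of all genes were called higher. The neutrophil attractants Cxcl2, Cxcl3 and Cxcl5 had the largest differences between the implants in 1 direction, but their rows rest on the B6 PE libraries. The CCR2 ligands Ccl8 and Ccl12 lay on the other side without a call.

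The injury itself moved few members past the threshold. In B6 Saline against B6 Uninjured, limma called 0 members (0% of all genes), with 8 members at an unadjusted p under 0.05 and medians of 0.45 over the members and -0.01 over all genes. Cx3cr1 had a log2 difference of 2.44 ± 0.87 (adjusted p = 0.303). Without B6 Saline replicate 2, the library that stood apart for Cxcl10, Cx3cl1 and Cx3cr1, 4 members were called there, Ackr3, Ccl22, Ccr7 and Cx3cr1. In B6 ECM against B6 Saline, 0 members were called (0.0283% of all genes) and 8 had an unadjusted p under 0.05, with medians of 0.16 and 0.03.

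In MRL mice fewer members passed the test than in B6 mice, and the 3 MRL PE libraries disagreed. Against MRL Uninjured, 3 of 42 members were higher in MRL PE (5.95% of all genes) and 0 lower, with medians of 1.35 over the members and 0.07 over all genes. The share of members, 7.14%, is near the background. Ccl6 stood at 15.4, 152 and 15.2 CPM in MRL PE and at 6.26, 9.21 and 3.09 CPM in MRL Uninjured (2.53 ± 0.77, adjusted p = 0.0476). Ccl9 stood at 12, 137 and 14.3 CPM against 6.56, 7.19 and 1.91 CPM (2.65 ± 0.77, adjusted p = 0.0466). Ccl7 stood at 0.854, 3.56 and 1.32 CPM against 0.149, 0.439 and 0.152 CPM (2.48 ± 0.76, adjusted p = 0.0479). For all 3 genes the groups were separate, and replicate 2 was well above the other PE libraries. Without it 0 members were called (0.00706% of all genes called in either direction), with adjusted p = 0.256 for Ccl6, 0.234 for Ccl9 and 0.228 for Ccl7. The count was also 0 without MRL Uninjured replicate 1 or 3, and it rose to 10 and 9 without MRL PE replicates 1 and 3.

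The members that changed most in B6 PE were near their resting level in MRL PE replicates 1 and 3. Cxcl2 stood at 0, 14.1 and 0.35 CPM in MRL PE and at 0.0750, 0.241 and 0.140 CPM in MRL Uninjured (1.83 ± 1.36, adjusted p = 0.33). Cxcl3 stood at 0, 3.19 and 0 CPM in MRL PE and at 0, 0.0631 and 0 CPM in MRL Uninjured (1.51 ± 0.99, adjusted p = 0.271). Ccl3 stood at 0.0777, 6.98 and 0 CPM against 0.112, 0.0940 and 0 CPM (1.69 ± 1.05, adjusted p = 0.249), and Ccl4 at 0.0779, 2.67 and 0.0777 CPM against 0.0372, 0.0314 and 0.0758 CPM. In each of the 4 genes replicate 2 was far above every other MRL library, while replicates 1 and 3 overlapped MRL Uninjured or lay within 3 counts of it. In replicate 2, Cxcl5 stood at 1.17 CPM and Cxcr1 at 7.67 CPM, the highest Cxcr1 level of all 24 libraries, and Cxcr1 was at 0 and 0.0390 CPM in replicates 1 and 3.

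**Figure D4:**
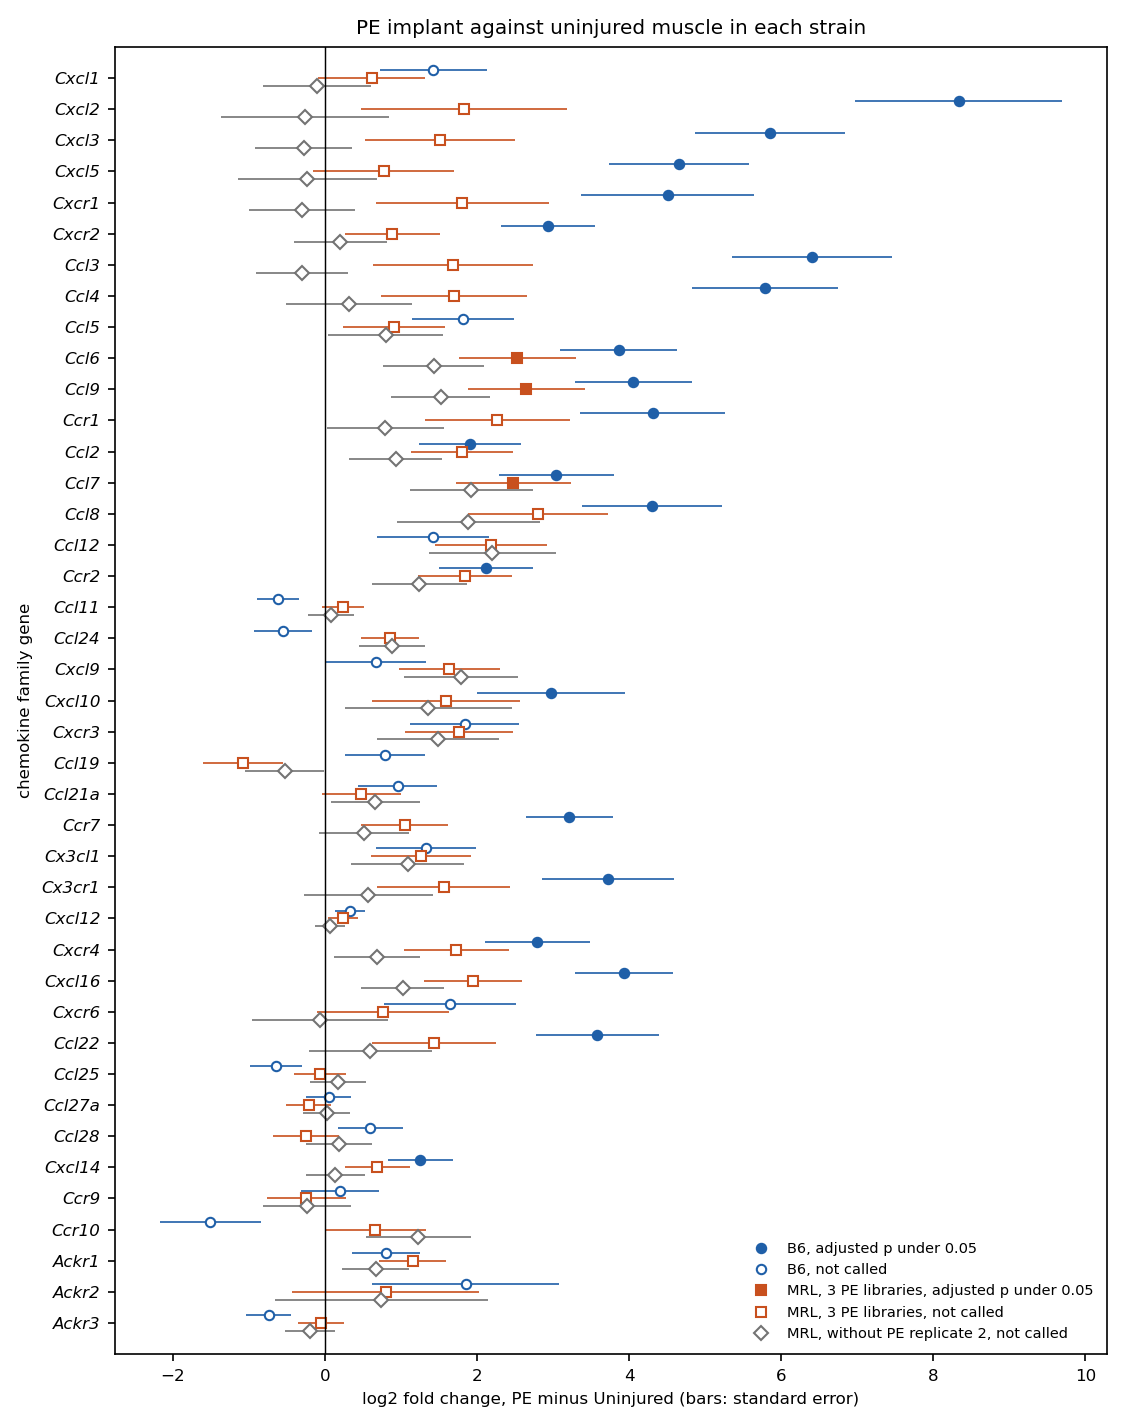
Log2 fold change (± SE, horizontal axis) of each member in PE against Uninjured muscle, for B6, for MRL with 3 PE libraries and for MRL without PE replicate 2. Most members lie to the right of 0 in B6, and the MRL values move towards 0 when replicate 2 is left out, which takes Cxcl2, Cxcl3 and Ccl3 from 1.83, 1.51 and 1.69 to -0.26, -0.28 and -0.31.

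Of the other members named by the study, Ccl8, Ccl2, Ccr2 and Cx3cr1 also had their highest MRL PE level in replicate 2. Ccl8 stood at 3.81, 24.9 and 3.49 CPM in MRL PE and at 0.627, 1.66 and 0.753 CPM in MRL Uninjured. Ccl2 stood at 0.617, 5.70 and 1.18 CPM against 0.421, 0.536 and 0.304 CPM, and Ccr2 at 5.5, 22.3 and 7.23 CPM against 3.55, 3.45 and 1.45 CPM. These groups were separate, with replicate 2 again the highest PE library. Cx3cr1 stood at 0.928, 6.98 and 0.734 CPM against 0.856, 0.769 and 0.205 CPM, and Cx3cl1 at 1.74, 4.67 and 5.85 CPM against 1.74, 2.37 and 0.751 CPM. Cxcl10 stood at 0.278, 0.760 and 0.678 CPM against 0.0355, 0.545 and 0.0361 CPM, and Ccl12 at 0.518, 0.499 and 0.527 CPM against 0.0428, 0.152 and 0 CPM. For Ccl12 and Cxcl10 replicate 2 did not stand apart. Cxcl12 stood at 78.9, 106 and 67.8 CPM against 77.2, 67.9 and 65.7 CPM, Ccl25 at 3.54, 2.00 and 3.07 CPM against 1.84, 3.15 and 4.25 CPM, and Ccr9 at 0.684, 0.527 and 0.419 CPM against 0.667, 0.547 and 0.739 CPM. The last 3 genes overlapped between the groups.

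Saline and ECM gave no call in MRL mice. Limma called 0 members in MRL Saline against MRL Uninjured (0% of all genes, 2 members at an unadjusted p under 0.05, medians 0.51 and -0.01) and 0 in MRL ECM against MRL Uninjured (0.0141% of all genes, 6 members at an unadjusted p under 0.05, medians 0.39 and -0.02). It called 0 in MRL ECM against MRL Saline (0.00706% of all genes, 2 at an unadjusted p under 0.05). It also called 0 in MRL PE against MRL Saline and in MRL PE against MRL ECM (0% of all genes in both), with 9 and 5 members at an unadjusted p under 0.05, and 0 members in both without MRL PE replicate 2. Ccl8, the strongest ECM gene of B6, stood at 3.27, 8.82 and 24.7 CPM in MRL ECM, above all 3 MRL Uninjured libraries (3.16 ± 0.92), and was not called against the multiple tests of that comparison (adjusted p = 1). MRL Saline held 8.47, 0.398 and 1.34 CPM of Ccl8, with replicate 1 apart. That library was also the highest MRL Saline library for Ccr2 (21.4 CPM against 3.12 and 4.01 CPM) and Cx3cl1 (10.4 CPM against 2.54 and 1.68 CPM). Without it 2 members, Ccl8 and Cxcl9, were called in MRL PE against MRL Saline.

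Cxcl2, Cxcl3, Ccl3 and Ccl4 did not exceed 0.896 CPM in any MRL Saline or MRL ECM library. Cxcl2 stood at 0.625, 0.391 and 0.504 CPM in MRL Saline and at 0.896, 0.0561 and 0 CPM in MRL ECM. Ccl3 stood at 0.214, 0.160 and 0.224 CPM after saline and at 0.486, 0.134 and 0.202 CPM after ECM, and Ccl4 and Cxcl3 did not exceed 0.454 and 0.168 CPM in these 6 libraries. The CCR1 ligands were higher, with 23.8, 7.5 and 9.86 CPM of Ccl6 after saline and 13.4, 30.6 and 21.6 CPM after ECM, and with 19.8, 8.63 and 6.02 CPM of Ccl9 after saline and 11.5, 17.2 and 11.7 CPM after ECM. For both, all 3 MRL ECM libraries lay above all 3 MRL Uninjured libraries, without a call. Of the CCR2 ligands, Ccl2 stood at 0.753, 0.511 and 0.630 CPM after saline and at 0.328, 0.948 and 0.864 CPM after ECM, and Ccl12 at 0.471, 0 and 0.162 CPM after saline. Cxcl12 stood at 81.5, 96.9 and 78.5 CPM after saline and at 78.6, 73.6 and 67.5 CPM after ECM, a narrow range like that of the other groups.

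The strains were next compared within each treatment. In uninjured muscle, 1 of 42 members was called higher in MRL (1.35% of all genes) and 0 lower, with medians of -0.26 over the members and 0.00 over all genes. Ccl19, the CCR7 ligand of lymphoid stroma, stood at 1.82, 0.758 and 2.69 CPM in MRL Uninjured and at 0.326, 0.180 and 0.558 CPM in B6 Uninjured (2.01 ± 0.53, adjusted p = 0.0445). All 3 MRL libraries lay above all 3 B6 libraries after saline (1.69, 2.99 and 2.23 CPM against 0.734, 0.588 and 0.636 CPM, adjusted p = 0.126) and after ECM (0.824, 1.57 and 2.02 CPM against 0.265, 0.302 and 0.491 CPM, adjusted p = 0.0859), without a call. After PE the strains overlapped, at 1.38, 0.279 and 0.805 CPM in MRL (0.15, adjusted p = 0.918). The Ccl19 call was lost without B6 Uninjured replicate 1 or 2 or MRL Uninjured replicate 1 or 3. Ccl19 has 7 near-identical copies or pseudogenes in the reference, and the number of copies in each strain was not tested, so reads of copies and of Ccl19 itself cannot be told apart.

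After saline, 1 member was lower in MRL (1.45% of all genes) and 0 higher, with medians of -0.31 and 0.01. Cxcl9 stood at 0.801, 0.249 and 0.193 CPM in MRL Saline against 7.49, 1.93 and 4.07 CPM in B6 Saline (-3.21 ± 0.66, adjusted p = 0.00751), with no overlap. In the other treatments Cxcl9 stood at 0.662, 2.14 and 0.968 CPM in MRL Uninjured, 1.42, 0.572 and 1.34 CPM in MRL ECM and 5.10, 2.93 and 3.23 CPM in MRL PE. After PE the strains overlapped in Cxcl9 (-0.68, adjusted p = 0.622). The count after saline was 0 without B6 Saline replicate 1 or MRL Saline replicate 3, and 4 without B6 Saline replicate 2. It was 2 without MRL Saline replicate 1. It was also 2 without MRL PE replicate 2 (1.93% of all genes called lower), which enters only the shared spread. After ECM, 1 member was lower in MRL (1.38% of all genes) and 0 higher, with medians of -0.58 and -0.02. Ccl7 stood at 0.378, 1.38 and 1.26 CPM in MRL ECM, below the 28.1, 2.76 and 6.93 CPM of B6 ECM (-3.10 ± 0.76, adjusted p = 0.0279). The Ccl7 call was lost without B6 ECM replicate 1 or 3 or MRL ECM replicate 1. Ccl12 was likewise lower in each MRL ECM library, at 0.104, 0.863 and 0.687 CPM, without a call (-2.16 ± 0.74, adjusted p = 0.16), and Ccl8 overlapped (-2.44 ± 0.92, adjusted p = 0.229). Without MRL ECM replicate 3, 2 members were called, Ccl7 and Ccl11. Without MRL PE replicate 2, 4 were lower (2.34% of all genes) and 1, Ccl19, was higher (1.9% of all genes).

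After PE, 4 of 42 members were lower in MRL (1.74% of all genes called lower) and 0 higher, with medians of -1.03 over the members and -0.02 over all genes, and 33 of the 42 had a lower mean in MRL. The 9 members whose row rests on the B6 PE libraries enter the median and the 33 of 42, so neither is read against the background. All 4 called members belong to those 9, and their count is not read against the background either. They were the ligands Cxcl2 (-5.94 ± 1.36, adjusted p = 0.0173), Cxcl3 (-4.07 ± 0.99, adjusted p = 0.0254), Ccl3 (-5.10 ± 1.05, adjusted p = 0.00771) and Ccl4 (-3.98 ± 0.96, adjusted p = 0.025). Every MRL PE library lay below every B6 PE library for Cxcl2, Ccl3 and Ccl4, and for Cxcl3 MRL replicate 2 (3.19 CPM) lay above B6 replicate 3 (2.56 CPM). Without MRL PE replicate 2, 18 members were lower in MRL (14.1% of all genes called lower) and 1 was higher (10.6% of all genes called higher). The median over the members was then -1.34. The 18 include Cxcl2, Cxcl3, Ccl3 and Ccl4, so neither this count nor this median is read against the background. Cxcl2 then differed by -8.03 ± 1.10 (adjusted p = 4.08e-05), Cxcl3 by -5.85 ± 0.64 (adjusted p = 3.14e-06), Ccl3 by -7.09 ± 0.61 (adjusted p = 1.66e-07) and Ccl4 by -5.35 ± 0.83 (adjusted p = 0.000148). The member that was higher was Ccr10, the receptor for Ccl27a and Ccl28, at 2.09 and 1.94 CPM in MRL replicates 1 and 3, 0.568 CPM in MRL replicate 2 and 0.383 to 0.606 CPM in B6 PE (1.99 ± 0.69 without replicate 2, adjusted p = 0.0422, and 1.42 ± 0.66 with it, adjusted p = 0.25). In the other direction, the count of 4 fell to 1 without B6 PE replicate 1 and to 0 without B6 PE replicate 2, MRL PE replicate 1 or MRL PE replicate 3. The macrophage markers of these libraries summed to 1682 to 5898 CPM in B6 and to 323, 4970 and 310 CPM in MRL, 3 of 8 neutrophil markers were lower in MRL PE, and their part in the difference was not tested.

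For Cxcl10, all 3 MRL PE libraries, at 0.278, 0.760 and 0.678 CPM, lay below the 6.12, 8.13 and 4.81 CPM of B6 PE. The difference missed the threshold with replicate 2 (-3.37 ± 0.97, adjusted p = 0.0638) and passed it without (-3.60 ± 1.10, adjusted p = 0.0228). In ECM libraries the strains were also separate, at 0.108, 0.584 and 1.33 CPM in MRL and 2.28 to 6.10 CPM in B6 (-2.85 ± 0.97, adjusted p = 0.163), and in MRL Saline Cxcl10 stood at 1.03, 0.262 and 0.0530 CPM. Cx3cr1 had a lower mean in MRL PE without a call (-2.60 ± 0.87, adjusted p = 0.106), with replicate 2 at 6.98 CPM, just above the lowest B6 PE library at 6.81 CPM, and it was called without replicate 2 (-3.59 ± 0.85, adjusted p = 0.00489).

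**Figure D5:**
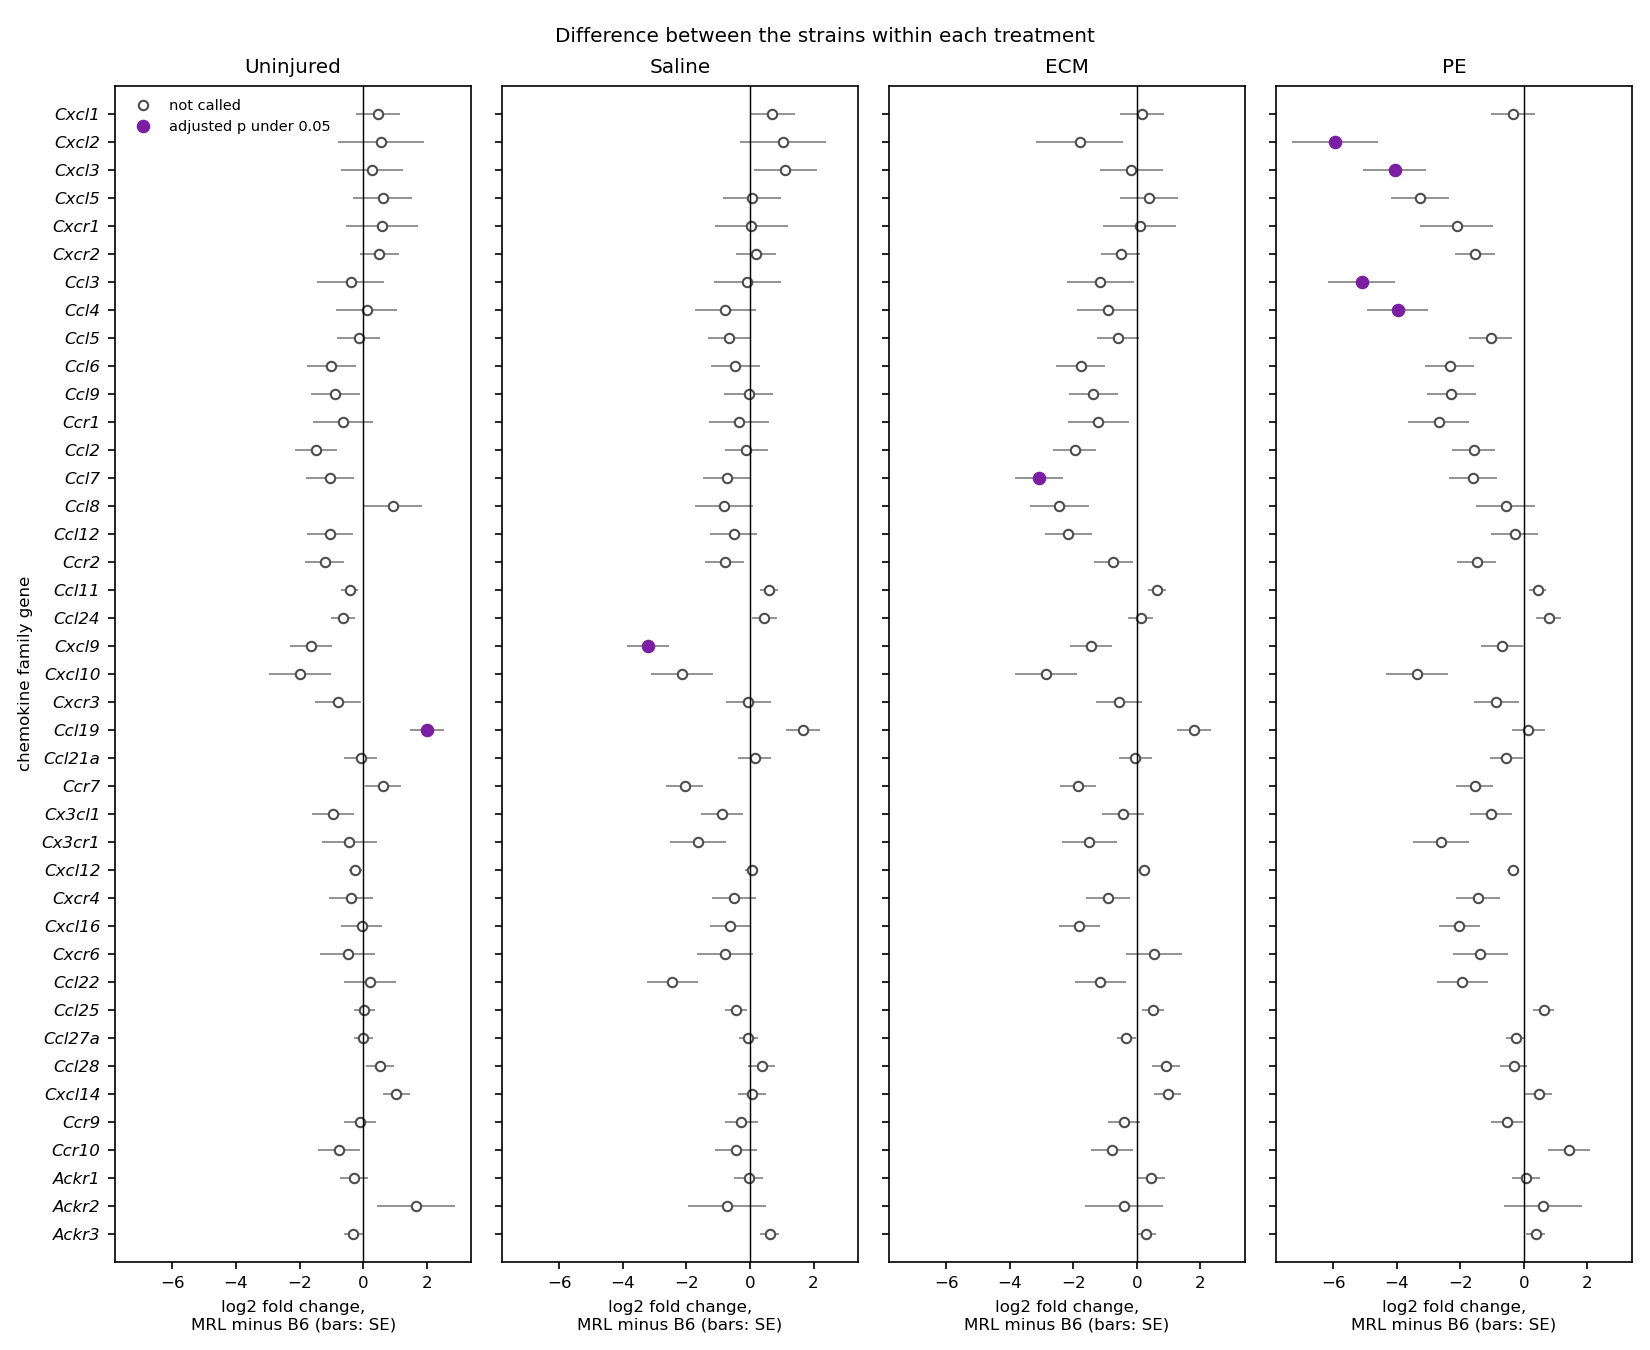
Log2 difference (± SE) between MRL and B6 (MRL minus B6) for each member in Uninjured, Saline, ECM and PE muscle. Values below 0 are lower in MRL. In PE, 32 of the 41 members shown lie below 0, with Cxcl2 lowest at -5.94, and Ccl19 lies above 0 at 2.01 in Uninjured muscle. The 41 include the 9 members whose row rests on the B6 PE libraries.

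Whether the response itself differed between the strains was tested with interaction contrasts. For PE against Uninjured, limma called 0 members (0.0212% of all genes), and 12 had an unadjusted p under 0.05. The largest differences in response were those of Cxcl2 (-6.51 ± 1.92), Ccl3 (-4.72 ± 1.49), Cxcl3 (-4.35 ± 1.39) and Ccl4 (-4.09 ± 1.36), each with adjusted p = 0.297. Without MRL PE replicate 2, 10 members had a smaller response in MRL (5.22% of all genes), namely Ccl3 (-6.71), Ccl4 (-5.47), Cxcl2 (-8.60), Cxcl3 (-6.13), Cxcl5, Cxcr1, Cxcr2, Ccr1, Ccr7 and Cxcl16. All of them except Ccr1 and Cxcl16 have rows that rest on the B6 PE libraries, so this count is not read against the background. The test of a strain difference in the PE response rested on whether MRL PE replicate 2 was included. For PE against ECM, 0 members were called (0% of all genes, 7 at an unadjusted p under 0.05), and 5 without that library (1.43% of all genes called lower). The count of 5 is likewise not read against the background. For ECM against Uninjured, 0 were called (0.00706% of all genes, 3 at an unadjusted p under 0.05), and for Saline against Uninjured 0 (0% of all genes, 4 at an unadjusted p under 0.05). An effect called in B6 and not in MRL is thus not shown to differ between the strains with all 24 libraries.

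Genes that act downstream of the family's receptors were examined as a list. Of 65 chemokine signalling genes (G proteins, PI3 kinases, Rac activators, arrestins and related genes), 63 had a row, and in B6 PE against Uninjured 34 were higher (14.7% of all genes) and 0 lower, with a median of 0.84 against 0.02 over all genes. Examples are the leukocyte GTPase Rac2 (4.39 ± 0.84, adjusted p = 0.00319) and the inhibitory G protein subunit Gnai2 (1.15 ± 0.26, adjusted p = 0.00661). In MRL PE against Uninjured 17 were higher (5.95% of all genes), Gnai2 among them (0.95, adjusted p = 0.0448). Many of these genes are carried by leukocytes in general, and their part in the chemokine result was not tested. Between MRL PE and B6 PE 1 of the 63 was called higher in MRL, near the background of 1.6% of all genes. It was Jak3, a kinase of cytokine receptors (1.39 ± 0.30, adjusted p = 0.0115). Of 8 other chemoattractant receptors with a row, 5 rose in B6 PE: Fpr2 (4.17) for formyl peptides, C5ar1 (3.40), C5ar2 (2.18) and C3ar1 (4.88) for complement fragments, and Ptafr (3.87) for platelet-activating factor, while S1pr1, the sphingosine-1-phosphate receptor, was lower (-0.59). In MRL PE, C5ar1 (2.13) and Ptafr (2.71) rose, and C5ar2 was lower than in B6 PE (-2.39, adjusted p = 0.0405). Cmklr1, the chemerin receptor, was called in MRL PE against Uninjured (1.39 ± 0.42, adjusted p = 0.0479), at 57.4, 40.2 and 56.9 CPM against 14.9, 27.4 and 17.8 CPM, and had a log2 difference of 0.01 in B6 (adjusted p = 0.99). Without MRL PE replicate 2, 1 of all 14159 genes was called in MRL PE against Uninjured. In Cmklr1 MRL PE replicates 1 and 3 were above replicate 2. The 7 adipocyte markers summed to 4889, 415 and 3115 CPM in MRL PE and to 234, 2263 and 619 CPM in MRL Uninjured, and their part in the Cmklr1 call was not tested.

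By position in the genome, 16 of the 21 members that rose in B6 PE lay in a cluster with another member, and Ccr7, Cx3cr1, Cxcr4, Cxcl16 and Cxcl14 did not. Most of the family lies in such clusters, including members that were not called, so this count does not show that called members gather there. Coordinates are those of GRCm39. On chromosome 5 at 90907186 to 91053797, Cxcl5, Cxcl3 and Cxcl2 were called and Cxcl1 was not. On chromosome 11, 3 of 5 genes of the MCP cluster at 81926397 to 82007625 were called (Ccl2, Ccl7 and Ccl8, but neither Ccl11 nor Ccl12), and 4 of 5 genes of the MIP-1 cluster at 83416602 to 83555509 (Ccl9, Ccl6, Ccl3 and Ccl4, but not Ccl5). The ECM calls, Ccl7 and Ccl8, both fell in the MCP cluster, and the MIP-1 cluster held 0 ECM calls. The receptor genes Cxcr2 and Cxcr1 on chromosome 1 at 74193150 to 74233790 were both called, as were Ccr1 and Ccr2 on chromosome 9, where Ccr9 and Cxcr6 were not. In the strain comparison after PE, the calls fell in the CXC cluster of chromosome 5 (Cxcl2 and Cxcl3) and the MIP-1 cluster (Ccl3 and Ccl4), and 0 of the 5 genes of the MCP cluster were called.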

How the data were processed

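Quadriceps RNA was made into poly(A)-selected paired-end libraries with an ERCC spike-in. The authors pseudoaligned reads with kallisto to the Ensembl GRCm39 transcriptome, summed them to genes with tximport (lengthScaledTPM), kept genes above 1 CPM in at least 3 libraries, normalized libraries by TMM in edgeR, and deposited values in log2 CPM with a prior count of 2. Of 14160 rows, 1 has no symbol and was dropped. From the value of a count of 0 (-3.65) the prior was 0.0795 CPM, which gave linear CPM and the mean effective library. The study calls the samples independent. 

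Groups came from the labels. Limma 3.58.1 (R 4.3.3) was fitted to the deposited log2 CPM of all 24 libraries with 1 coefficient per group and a variance trend, with 2-sided tests and Benjamini-Hochberg adjustment over 14159 genes. The study's voom needs counts, so limma with a trend took its place. The script was tested on simulated data. The members, the pathway and marker lists and the tests were chosen with earlier results of these data known. Values in every library are given for members among the 5 largest calls in each direction of a comparison and for those the study names, and other members by range or count. Marker lists are summed CPM. Sequence identity was computed with BLAST 2.17.0 on GENCODE M39 transcripts, and promoters are RefSeq windows of GRCm38.p6, matched for 31 of 42 members. Alternatives were another pseudocount, a filter on low values, other scalings, weights and prior variance, the compared groups alone, each library left out, and the replicate number as a block. Library weights were estimated gene by gene. Deviations of same-numbered libraries correlated above 0.1 in all 3 pairs in MRL PE against B6 PE alone (0.105, 0.532 and 0.439), where the block changed no call, and the labels do not say that a number marks a shared batch. 1 member enters the counts and medians and is not reported here by name or value.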

Additional observations from a re-analysis of the deposited data

How the results depend on the processing

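Over recomputed log2 fold changes of 30 members, 842 kept direction and side of the threshold, 163 lost a call, 45 gained one and 10 reversed. With 3 libraries a group, counts outside B6 PE against Uninjured rest on few libraries, and levels under 0.119 CPM rest on fewer than 3 counts. The causes of the changes below were not tested, except that the filter left 17 members to test.

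When 1 compared library at a time was dropped, the members called ranged from 0 to 4 in B6 Saline against Uninjured, 1 to 2 in B6 ECM against Uninjured, 12 to 22 in B6 PE against Uninjured, 0 to 13 in B6 PE against Saline, 0 to 3 in B6 PE against ECM, 0 to 10 in MRL PE against Uninjured and 0 to 2 in MRL PE against Saline. Between the strains they ranged from 0 to 1 in Uninjured, 0 to 4 in Saline, 0 to 2 in ECM and 0 to 19 in PE, and for the strain difference from 0 to 10 in PE against Uninjured and 0 to 5 in PE against ECM.

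Library weights gave 7 members in B6 Saline against Uninjured, 16 in B6 ECM against Uninjured, 3 in B6 ECM against Saline, 21 in B6 PE against ECM, 4 in MRL PE against Saline, 2 in MRL PE against ECM, 8, 13 and 26 between the strains in Saline, ECM and PE, and 17 and 8 for the strain difference in PE against Uninjured and PE against ECM. The filter at a mean log2 CPM of 1 gave 1 in B6 ECM against Uninjured, 7, 3 and 0 in B6 PE against Uninjured, Saline and ECM, and 0 between the strains in Uninjured, ECM and PE. The compared groups alone gave 11 in B6 ECM against Uninjured, 6 in B6 PE against ECM, 0 in MRL PE against Uninjured, and 0, 0 and 1 between the strains in Uninjured, Saline and PE, the last being Cxcl10. On the log2(CPM + 1) scale there were 5 in B6 PE against ECM, 1 in MRL PE against Uninjured, and 0 and 3 between the strains in Uninjured and ECM. Equal totals gave 0 in B6 PE against ECM, 8 in MRL PE against Uninjured and 0 between the strains in Uninjured. Quantile normalization gave 1 in B6 PE against ECM, 0 in MRL PE against Uninjured, and 0 and 2 between the strains in Uninjured and Saline. A constant prior variance gave 0 in MRL PE against Uninjured and 2 between the strains in Saline. The settings also move the calls over all genes, whose shares are not given here. These counts are therefore not read against a background.

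With the replicate number as a block, 0 members were called in MRL PE against MRL Uninjured and 0 in MRL Uninjured against B6 Uninjured. In B6 PE against Uninjured 20 were higher and 1, Ackr3, was lower, and no other count moved by over 1.5 times. The labels give no pairing there, so samples share only a number.

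In B6 PE against Uninjured, Ccr9 reversed to -0.38 under quantile normalization and -0.11 with library weights. In MRL PE against Uninjured, Ccl3, Cxcl2 and Cxcl3 reversed to -0.17, -0.046 and -0.14 with library weights and to -0.31, -0.26 and -0.28 without MRL PE replicate 2, and the highest values without another library were 2.93, 3.48 and 2.40. Ccl19 between the strains after PE reversed to -0.06 without B6 PE replicate 3 and -0.31 without MRL PE replicate 1, and was highest at 0.70 without MRL PE replicate 2.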
